A study of Mus musculus with 24 samples.

Results

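The genes Pml, Daxx, Sp100, Sp110 and Sp140 encode proteins of PML nuclear bodies or close relatives of them. They were taken by gene symbol, by a rule that uses no measured value but was written with earlier results of these data known, and they are 5 of the 38215 genes in the deposited table; all 5 were among the 15879 genes that passed the filter on low counts. The study sequenced polyadenylated RNA of long-term haematopoietic stem cells (LT-HSCs), the rare self-renewing cells at the top of the blood hierarchy, in 24 libraries from 12 mice. The 4 groups of 6 libraries were Jak2V617F cells under pegylated interferon alpha (pegIFN), wild-type (WT) cells under pegIFN, Jak2V617F cells under vehicle and WT cells under vehicle. Every mouse was a C57BL/6J recipient (Ptprc a/b) that had received 11 Gy of radiation and then 2000000 bone marrow cells, mixed in equal parts from a Jak2fl-V617F/+ Tg(E2A-cre) donor and a Jak2+/+ Ptprca donor, so each mouse gave a library of both genotypes. Jak2V617F is the activating kinase mutation of myeloproliferative neoplasms, and E2A-cre is a broadly active Cre transgene, so the mutation is not limited to blood cells of that donor. Mice received either 600 ng of pegIFN (PharmaEssentia) or its carrier, albumin in saline, in 5 weekly doses over 4 weeks, with cells collected 48 hours after the final injection. Lineage-negative Sca1+ cKit+ CD150+ CD48- cells were sorted as CD45.1+ (WT) or CD45.2+ (Jak2V617F). The age of the mice and the number of donors are not given in the labels used here, and the counts do not resolve the Jak2 mutation itself.

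PML nuclear bodies are small spherical structures in the cell nucleus. The PML protein is their scaffold: it is modified by the small protein SUMO and through it recruits partners such as the histone chaperone DAXX and the transcriptional regulator SP100. SP110 and SP140 are relatives of SP100 that share its domains for reading chromatin. Type I interferons act through the receptor chains Ifnar1 and Ifnar2 and the kinases Jak1 and Tyk2 on transcription factors such as Stat2 and Irf9, and Pml and Sp100 are textbook interferon-stimulated genes. In mice, Pml has also been tied to the maintenance of haematopoietic stem cells.

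The genes lie on 3 chromosomes of GRCm38, in the positions given by the deposited table. Pml (ENSMUSG00000036986) is at chr9:58218076-58249786 on the minus strand and Daxx (ENSMUSG00000002307) is at chr17:33909414-33915589 on the plus strand. The other three are neighbours on chromosome 1. Sp110 (ENSMUSG00000070034) is at chr1:85576899-85598817 on the minus strand, Sp140 (ENSMUSG00000070031) is at chr1:85600378-85645037 on the plus strand and Sp100 (ENSMUSG00000026222) is at chr1:85649988-85709998 on the plus strand. Their start regions are shown because these neighbours had different fold changes under pegIFN. Each window runs from 250 bases before to 50 bases after an annotated start (RefSeq, GRCm38.p6) and is written along the strand of its gene, with capitals where TTTC, 3 free bases and TTTC stand in a row, the reverse complement of GAAA, 3 free bases and GAAA.
Sp100, chr1:85649738-85650037 (plus strand): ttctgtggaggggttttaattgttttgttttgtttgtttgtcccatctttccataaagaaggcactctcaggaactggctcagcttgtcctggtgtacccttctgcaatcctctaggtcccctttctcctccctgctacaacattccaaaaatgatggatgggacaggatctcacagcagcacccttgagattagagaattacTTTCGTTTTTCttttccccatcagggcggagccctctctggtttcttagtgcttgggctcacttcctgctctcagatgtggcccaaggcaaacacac
Sp110, chr1:85598761-85599060 (minus strand): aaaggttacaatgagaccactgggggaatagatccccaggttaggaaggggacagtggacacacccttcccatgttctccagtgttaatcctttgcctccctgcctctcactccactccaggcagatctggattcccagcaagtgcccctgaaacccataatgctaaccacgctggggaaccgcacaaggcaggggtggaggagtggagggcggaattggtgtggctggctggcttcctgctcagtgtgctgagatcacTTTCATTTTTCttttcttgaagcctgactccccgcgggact
Sp140, chr1:85600453-85600752 (plus strand): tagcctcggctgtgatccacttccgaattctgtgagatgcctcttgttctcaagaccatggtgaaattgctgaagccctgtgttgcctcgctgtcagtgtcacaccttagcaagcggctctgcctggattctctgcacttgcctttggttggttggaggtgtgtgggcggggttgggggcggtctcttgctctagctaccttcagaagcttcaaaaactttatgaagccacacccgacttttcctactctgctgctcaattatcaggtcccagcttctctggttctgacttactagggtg

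The capitals mark bases 204 to 214 of the Sp100 window (TTTCGTTTTTC) and bases 260 to 270 of the Sp110 window (TTTCATTTTTC). The longest run common to both windows was tttttcttttc, 11 bases that were present in 0.234% of all 32851 promoter windows searched. The run was picked as the longest match, so that share does not measure how often windows share some run of this length. This spacing of GAAA repeats was searched only after the sequences had been seen. It was present on one or other strand in 2.75% of all windows. Among the 9 windows of the 5 genes it was in 3, both of Sp100 and 1 of Sp110. The Sp100 windows overlap and hold the same site, so these matches are not independent. Counted by gene, the spacing was in Sp100 and Sp110, and in 3.17% of all genes with a window. The core of the interferon-stimulated response element (GAAA, 2 free bases and GAAA, in 3.44% of all windows) and the gamma-activated sequence (TTCNNNGAA, in 8.3% of all windows) were searched on both strands and were not found in these 9 windows. These are matches of letters in a 300-base window and not measured binding sites. The Sp140 window, from base 85600453, lies inside the gene as the deposited table places it, from base 85600378. The sequence at that start was not searched, so the lack of a match in Sp140 is not a like-for-like contrast with Sp100 and Sp110.

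Under pegIFN, 4 of the 5 genes rose in Jak2V617F LT-HSCs and the same 4 rose in WT LT-HSCs, and Sp140 did not pass the test in either genotype. Daxx rose 2.95-fold in Jak2V617F and 3.45-fold in WT cells, Sp100 rose 2.90-fold in Jak2V617F and 3.00-fold in WT cells, and Pml rose 1.90-fold in Jak2V617F and 2.04-fold in WT cells. Sp110 rose 1.37-fold in Jak2V617F and 1.35-fold in WT cells. The background was high: edgeR's quasi-likelihood test called 44% of tested genes changed by pegIFN in Jak2V617F cells (21.7% higher, 22.3% lower) and 56.8% in WT cells (28.2% higher, 28.7% lower). Among 15879 genes ranked by log2 fold change, from the most positive down, Daxx was number 208 in Jak2V617F and 196 in WT cells and Sp100 was number 216 in Jak2V617F and 237 in WT cells. Pml was number 418 in Jak2V617F and 438 in WT cells, and Sp110 was number 1302 in Jak2V617F and 2288 in WT cells.

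Levels below are CPM, counts scaled to a common library size with TMM factors, and fold changes come from edgeR with p-values adjusted over all tested genes by Benjamini-Hochberg. Pml, the scaffold, had a lowest, median and highest value of 269, 341 and 369 CPM in Jak2V617F pegIFN libraries and 375, 412 and 483 CPM in WT pegIFN libraries. It had 161, 172 and 195.5 CPM in Jak2V617F vehicle libraries and 170.0, 212.5 and 223 CPM in WT vehicle libraries. All 12 pegIFN libraries were therefore above all 12 vehicle libraries for Pml. The log2 fold change of pegIFN over vehicle was 0.92 ± 0.08 (SE) in Jak2V617F cells (edgeR adjusted p = 1.9e-09) and 1.03 ± 0.08 in WT cells (edgeR adjusted p = 1.9e-10).

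Daxx, which deposits the histone variant H3.3 together with Atrx, had a higher fold change than the other 4 genes in WT cells, while in Jak2V617F cells its fold change and that of Sp100 differed by less than their errors. Its lowest, median and highest values were 113, 119 and 136 CPM in Jak2V617F pegIFN libraries and 128, 135.5 and 179.9 CPM in WT pegIFN libraries. Under vehicle they were 38.8, 41.4 and 44.7 CPM in Jak2V617F libraries and 37.85, 42.5 and 44.65 CPM in WT libraries. The vehicle libraries of both genotypes lay within a narrow band for Daxx, and the highest WT pegIFN library stood above the others. The log2 fold change was 1.56 ± 0.08 in Jak2V617F cells (edgeR adjusted p = 1.4e-14) and 1.79 ± 0.08 in WT cells (edgeR adjusted p = 8.1e-16).

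Sp100, the body constituent that binds heterochromatin protein HP1, followed closely. It had 248, 263.5 and 302.5 CPM (lowest, median, highest) in Jak2V617F pegIFN libraries and 297, 319 and 373 CPM in WT pegIFN libraries. The vehicle values were 84.5, 90.8 and 105 CPM in Jak2V617F libraries and 97.5, 108 and 118 CPM in WT libraries, so the treatments did not overlap. The log2 fold change was 1.54 ± 0.07 in Jak2V617F cells (edgeR adjusted p = 1.1e-15) and 1.59 ± 0.07 in WT cells (edgeR adjusted p = 5.6e-16).

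Sp110, a chromatin-binding relative whose gene sits in a mouse locus for susceptibility to tuberculosis, had the smallest of the increases that passed. Its lowest, median and highest values were 189, 202 and 223 CPM in Jak2V617F pegIFN libraries and 204, 218 and 225 CPM in WT pegIFN libraries. They were 142, 149 and 156 CPM in Jak2V617F vehicle libraries and 152.5, 158 and 169.7 CPM in WT vehicle libraries. Although its fold was small, the spread within groups was small too, and no pegIFN library fell into the vehicle range. The log2 fold change was 0.46 ± 0.05 in Jak2V617F cells (edgeR adjusted p = 3.6e-08) and 0.44 ± 0.05 in WT cells (edgeR adjusted p = 3.2e-08). Groups did not overlap for these 4 genes in either genotype, as was the case for 18.4% of tested genes in Jak2V617F and 30% in WT cells.

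Sp140, which in mouse macrophages restrains the type I interferon response, lay between Sp110 and Sp100 on the chromosome and did not rise with them. It had 33.2, 37.7 and 50.85 CPM in Jak2V617F pegIFN libraries and 37.1, 42.4 and 46.2 CPM in WT pegIFN libraries, against 36.9, 42.5 and 46.55 CPM in Jak2V617F vehicle libraries and 38.2, 47.0 and 55.3 CPM in WT vehicle libraries. The ranges of all 4 groups overlapped. The log2 fold change was -0.13 ± 0.09 in Jak2V617F cells (95% interval -0.32 to 0.06, edgeR adjusted p = 0.28) and -0.17 ± 0.09 in WT cells (95% interval -0.36 to 0.02, edgeR adjusted p = 0.12). Neither result held in every fit. Without replicate 3 of the Jak2V617F pegIFN group the change was -0.22 in Jak2V617F cells (edgeR adjusted p = 0.028). In WT cells it passed in 0 of 12 fits without a library, but with upper-quartile scaling it was -0.25 (edgeR adjusted p = 0.026). That scaling moved the median of all genes in WT cells by -0.082. The upper ends of the Sp140 intervals lay below the lower ends of those of Sp110, which were 0.36 in Jak2V617F and 0.34 in WT cells.

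**Figure D1:**
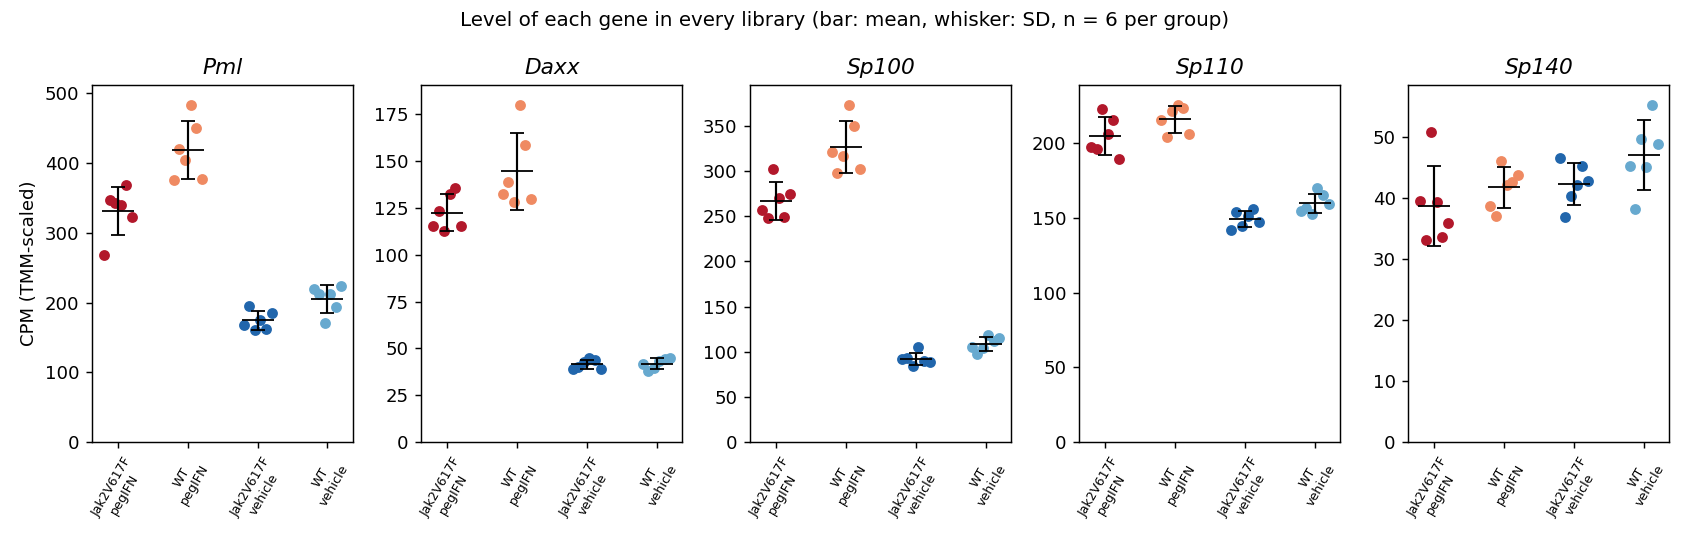
CPM of each gene (y axis, from 0, one panel per gene) in every library of the 4 groups; points are libraries, the bar is the mean and the whisker the SD of 6. Pml, Daxx, Sp100 and Sp110 have separate pegIFN and vehicle ranges, while the Sp140 ranges overlap, with 1 Jak2V617F pegIFN library at 50.85 CPM above the rest of its group.

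Per kilobase of annotated exon, which allows levels of different genes to be compared, pegIFN changed the order of the family. Pml was first in all 4 groups, with 59.5 ± 6.13 CPM per kb in Jak2V617F pegIFN, 75.1 ± 7.56 in WT pegIFN, 31.3 ± 2.46 in Jak2V617F vehicle and 36.9 ± 3.59 in WT vehicle libraries (SD, n = 6 each). Daxx came second under pegIFN, at 38.9 ± 3.08 CPM per kb in Jak2V617F and 45.9 ± 6.53 in WT cells, but its range overlapped that of Sp100, which had 35.3 ± 2.73 CPM per kb in Jak2V617F and 43.2 ± 3.88 in WT cells. Sp110 was below them under pegIFN, with 30.2 ± 1.88 CPM per kb in Jak2V617F and 31.8 ± 1.35 in WT cells, and its range overlapped that of Sp100 in Jak2V617F but not in WT cells. Under vehicle Sp110 was second, with 22.0 ± 0.80 CPM per kb in Jak2V617F and 23.5 ± 0.97 in WT cells. Daxx, Sp100 and Sp140 then lay together, between 12.2 and 13.2 CPM per kb in Jak2V617F vehicle and between 13.3 and 14.4 in WT vehicle libraries on average, and neighbours in that order overlapped. Sp140 was last under pegIFN, with 11.7 ± 1.96 CPM per kb in Jak2V617F and 12.6 ± 1.00 in WT cells. These are union exon lengths of the GENCODE M21 annotation, and transcripts in these cells may use only some of those exons.

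Jak2V617F and WT cells were compared within each treatment. In this comparison, effects of the mutation cannot be told apart from those of donor sex and other donor alleles, as described below. Under pegIFN, Pml, Daxx and Sp100 were lower in Jak2V617F than in WT cells, and Sp110 and Sp140 did not pass the test. Under vehicle, Pml and Sp100 were lower in Jak2V617F cells. The log2 differences were between -0.34 and -0.23 for the called genes, and none of the 5 genes was higher in Jak2V617F cells in either comparison. Over all tested genes, 8.59% were called under pegIFN (4.16% higher, 4.43% lower) and 12.7% under vehicle (8.48% higher, 4.23% lower), beside 3 of 5 members under pegIFN and 2 of 5 under vehicle.

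Under pegIFN, Pml averaged 332 ± 34.2 CPM in Jak2V617F and 418.5 ± 42.1 CPM in WT cells (SD, n = 6 each), a log2 difference of -0.34 ± 0.08 (edgeR adjusted p = 0.01). It was the only member whose genotype groups did not overlap, as was the case for 3.46% of tested genes under pegIFN and 2.91% under vehicle. Sp100 averaged 267 ± 20.6 CPM in Jak2V617F and 327 ± 29.3 CPM in WT cells, a log2 difference of -0.29 ± 0.06 (edgeR adjusted p = 0.0084). Daxx averaged 122.5 ± 9.71 CPM in Jak2V617F and 145 ± 20.6 CPM in WT cells, a log2 difference of -0.24 ± 0.07 (edgeR adjusted p = 0.044). Sp110 averaged 204.5 ± 12.8 CPM in Jak2V617F and 216 ± 9.12 CPM in WT cells (log2 difference -0.08 ± 0.05, edgeR adjusted p = 0.3), and Sp140 averaged 38.8 ± 6.53 CPM in Jak2V617F and 41.8 ± 3.32 CPM in WT cells (log2 difference -0.11 ± 0.09, edgeR adjusted p = 0.52). Without replicate 3 of the Jak2V617F pegIFN group the difference of Sp140 was -0.21 (edgeR adjusted p = 0.0822).

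Under vehicle, Pml averaged 175 ± 13.7 CPM in Jak2V617F and 205 ± 20.01 CPM in WT cells, a log2 difference of -0.23 ± 0.08 (edgeR adjusted p = 0.049). Sp100 averaged 92.0 ± 6.97 CPM in Jak2V617F and 109 ± 7.94 CPM in WT cells, a log2 difference of -0.24 ± 0.07 (edgeR adjusted p = 0.018). For Sp100, 5 of 6 Jak2V617F vehicle libraries lay below every WT vehicle library, and for Pml 3 of 6 did. Daxx was level, with 41.5 ± 2.54 CPM in Jak2V617F and 41.9 ± 2.79 CPM in WT cells (log2 difference -0.01 ± 0.08, 95% interval -0.17 to 0.14, edgeR adjusted p = 0.93). Sp110 averaged 149 ± 5.42 CPM in Jak2V617F and 159.6 ± 6.59 CPM in WT cells; its log2 difference of -0.10 ± 0.05 did not pass (edgeR adjusted p = 0.15), but with the mouse as a block the same difference passed (edgeR adjusted p = 0.035). Sp140 averaged 42.4 ± 3.46 CPM in Jak2V617F and 47.0 ± 5.71 CPM in WT cells (log2 difference -0.15 ± 0.09, edgeR adjusted p = 0.29).

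Since both donors' cells came from the same mice, each difference was also read within mice. Under pegIFN the ratio of Jak2V617F over WT was below 1 in 6 of 6 mice for Pml (lowest 0.704, median 0.822, highest 0.854), for Daxx (0.737, 0.875 and 0.891) and for Sp100 (0.713, 0.816 and 0.956). It was below 1 in 5 of 6 mice for Sp110 (0.915, 0.940 and 1.005) and in 4 of 6 for Sp140 (0.788, 0.913 and 1.101). All 6 mice pointing down was seen in 10.1% of tested genes under pegIFN. Under vehicle the ratio was below 1 in 6 of 6 mice for Pml (0.765, 0.836 and 0.945), Sp100 (0.764, 0.844 and 0.952) and Sp110 (0.889, 0.934 and 0.984), where 13.3% of tested genes did the same. For Daxx under vehicle it was below 1 in 3 of 6 mice (0.872, 1.008 and 1.087), and for Sp140 in 5 of 6 (0.813, 0.908 and 1.03). With the mouse as a block, 11.3% of tested genes were called lower under pegIFN and 13.6% under vehicle, and edgeR's adjusted p was 0.00014 for Pml, 0.0016 for Daxx and 0.0011 for Sp100 under pegIFN and 0.0014 for Pml and 0.0032 for Sp100 under vehicle.

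**Figure D2:**
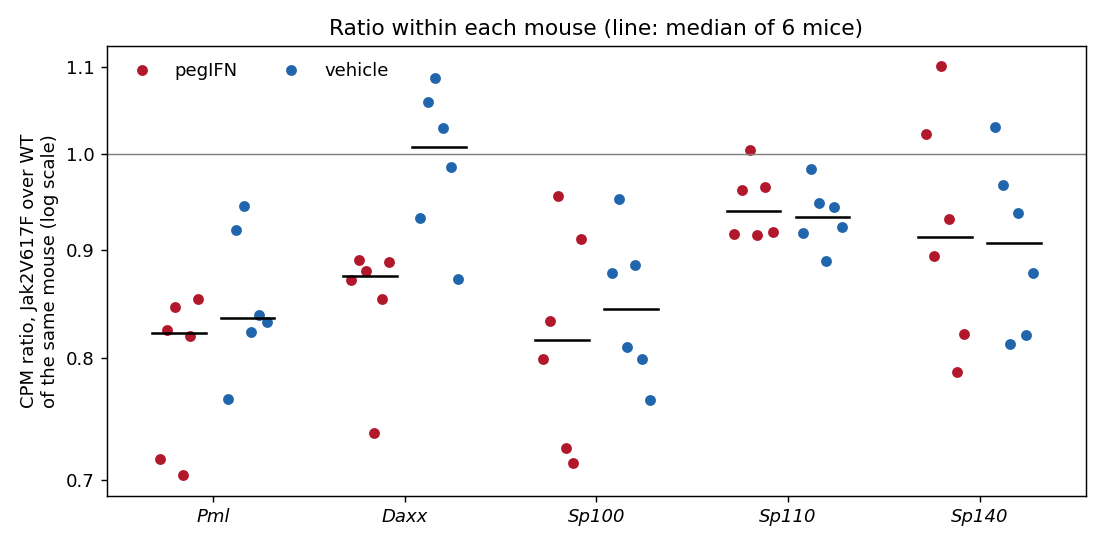
Ratio of Jak2V617F over WT CPM within each of 6 mice per treatment (y axis, log scale; the line is the median), for each gene on the x axis. Points of Pml and Sp100 lie below 1 in both treatments, those of Daxx lie below 1 under pegIFN and around 1 under vehicle.

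The genotype calls of Pml and Sp100 under vehicle and of Daxx under pegIFN were near the threshold in the fit of 4 group means. With the mouse as a block, edgeR's adjusted p was 0.0014 for Pml, 0.0032 for Sp100 and 0.0016 for Daxx. The fits below with libraries left out had no mouse block, and the block was not tried with them. Without single libraries, Pml under vehicle kept its direction (log2 -0.28 to -0.20) but lost the call in 9 of 12 cases, namely WT vehicle replicates 1, 2, 4, 5 and 6 and Jak2V617F vehicle replicates 1, 3, 5 and 6. Sp100 under vehicle (-0.29 to -0.21) lost it in 5 of 12, without WT vehicle replicates 4, 5 and 6 or Jak2V617F vehicle replicates 3 and 6. Daxx under pegIFN (-0.28 to -0.17) lost it in 8 of 12, without WT pegIFN replicates 2, 4 and 5 or Jak2V617F pegIFN replicates 1, 2, 3, 4 and 6. Pml and Sp100 under pegIFN passed in 12 of 12.

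The donors also differed in ways other than Jak2. Xist, transcribed from the inactive X chromosome, was at 3.00 to 110 CPM in 11 Jak2V617F libraries and 1801 to 3310 CPM in 11 WT libraries. The sum of 4 Y-linked genes (Uty, Kdm5d, Eif2s3y, Ddx3y) was 158 to 243 CPM in the same Jak2V617F libraries and 2.17 to 75.7 CPM in the WT ones. Among these WT libraries it was 2.17 to 22.7 CPM under pegIFN and 20.2 to 75.7 CPM under vehicle. The source of this Y-linked RNA was not tested. Replicate 1 of the Jak2V617F pegIFN group (Xist 654 CPM, Y-linked sum 149 CPM) and replicate 4 of the WT vehicle group (Xist 599.8 CPM, Y-linked sum 249.6 CPM) stood apart. Without these libraries the log2 differences were -0.22 for Pml and -0.22 for Sp100 under vehicle (edgeR adjusted p = 0.0716 for Pml and 0.0596 for Sp100) and -0.22 for Daxx under pegIFN (edgeR adjusted p = 0.107). Then 2 of 5 members were called lower under pegIFN, beside 2.6% of the genes tested in that fit, and 0 of 5 under vehicle, beside 1.87%. With pegIFN 4 of 5 rose in each genotype, beside 20.9% of genes in Jak2V617F and 26.5% in WT cells. Effects of Jak2V617F, of the sex of the donor and of other donor alleles cannot be told apart. Sp100, Sp110 and Sp140 lie on the chromosome of Ptprc, the CD45 gene by which donors were distinguished, 52.4 to 52.5 Mb from it, and whether the donors differ there was not tested.

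The response to pegIFN itself was compared between genotypes through the interaction term. None of the 5 genes passed, and edgeR called 0% of tested genes (0 genes, against 1338 at an unadjusted p below 0.05 and 38 by DESeq2). Daxx was closest, with a log2 interaction of -0.23 ± 0.11 (95% interval -0.44 to -0.01, edgeR adjusted p = 0.58), and an edgeR adjusted p of 0.073 with the mouse as a block, where 3.33% of tested genes were called. The interaction was -0.10 ± 0.11 for Pml (95% interval -0.33 to 0.12), -0.05 ± 0.09 for Sp100 (-0.24 to 0.14), 0.02 ± 0.06 for Sp110 (-0.11 to 0.15) and 0.04 ± 0.13 for Sp140 (-0.23 to 0.31). A call in one treatment and not in the other, as for Daxx, was thus not shown to differ between treatments.

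**Figure D3:**
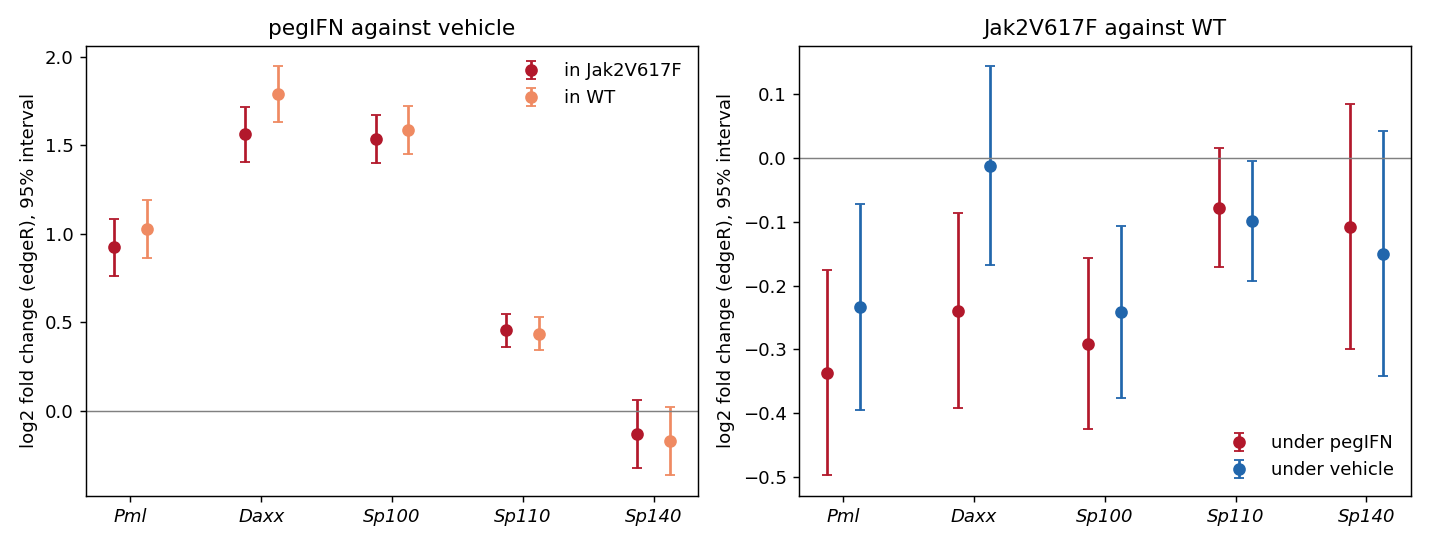
Log2 fold changes from edgeR with 95% intervals (y axis) for each gene (x axis): pegIFN against vehicle in each genotype on the left, Jak2V617F against WT under each treatment on the right, on different scales. On the left Daxx (1.56 and 1.79) and Sp100 (1.54 and 1.59) lie highest and the intervals of Sp140 include 0, and on the right all 10 estimates lie below 0.

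Sp110, Sp140 and Sp100 sit side by side within 133.1 kb, so the genes around them were read out as well. Between 250 kb to either side of the 3 genes the table lists 21 genes, of which 11 were tested. Sp110 and Sp100, at the outer positions, rose and Sp140 between them did not. The largest change of the region was that of Gm7592, annotated as a pseudogene at chr1:85526602-85552178, with 10.8 ± 2.92 CPM in Jak2V617F pegIFN and 13.8 ± 4.35 CPM in WT pegIFN libraries, against 0.557 ± 0.27 CPM in Jak2V617F vehicle and 0.5145 ± 0.30 CPM in WT vehicle libraries. Its log2 fold change was 4.27 ± 0.34 in Jak2V617F (edgeR adjusted p = 6.2e-10) and 4.74 ± 0.34 in WT cells (edgeR adjusted p = 7.9e-11). Another pseudogene, Gm2666, also rose (2.80 ± 0.65 in Jak2V617F, 3.26 ± 0.61 in WT cells), at mean levels of 0.547 CPM in Jak2V617F pegIFN and 0.903 CPM in WT pegIFN libraries, against 0.0773 CPM in Jak2V617F vehicle and 0.0942 CPM in WT vehicle libraries.

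Gm10552, annotated antisense to Sp140 and inside it, rose by 2.11 ± 0.55 in Jak2V617F and 1.93 ± 0.55 in WT cells, and under pegIFN averaged 1.41 CPM in Jak2V617F and 1.12 CPM in WT libraries. Gm17017, antisense across the end of Sp140 and the start of Sp100, was at -0.41 ± 0.19 in Jak2V617F cells (edgeR adjusted p = 0.082) and fell by 0.85 ± 0.19 in WT cells (edgeR adjusted p = 0.00053). Downstream of Sp100, A630001G21Rik fell by 0.31 ± 0.09 in Jak2V617F and 0.54 ± 0.09 in WT cells. Cab39, which encodes a scaffold of the kinase LKB1, was at 0.12 ± 0.06 in Jak2V617F cells (edgeR adjusted p = 0.091) and rose by 0.18 ± 0.06 in WT cells (edgeR adjusted p = 0.0092), and Gm16094 and Itm2c did not pass in either genotype. Whether counting used the strand is not stated, so antisense genes and the genes they overlap are uncertain. Sp100, Sp110 and Sp140 had non-whole counts in 24 of 24 libraries, against 1 library for Pml and 0 for Daxx. RSEM thus divided some reads of these Sp genes among several entries. Whether those were similar sequences or overlapping genes was not tested. Levels within the family and the nearby pseudogenes are uncertain to that extent.

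**Figure D4:**
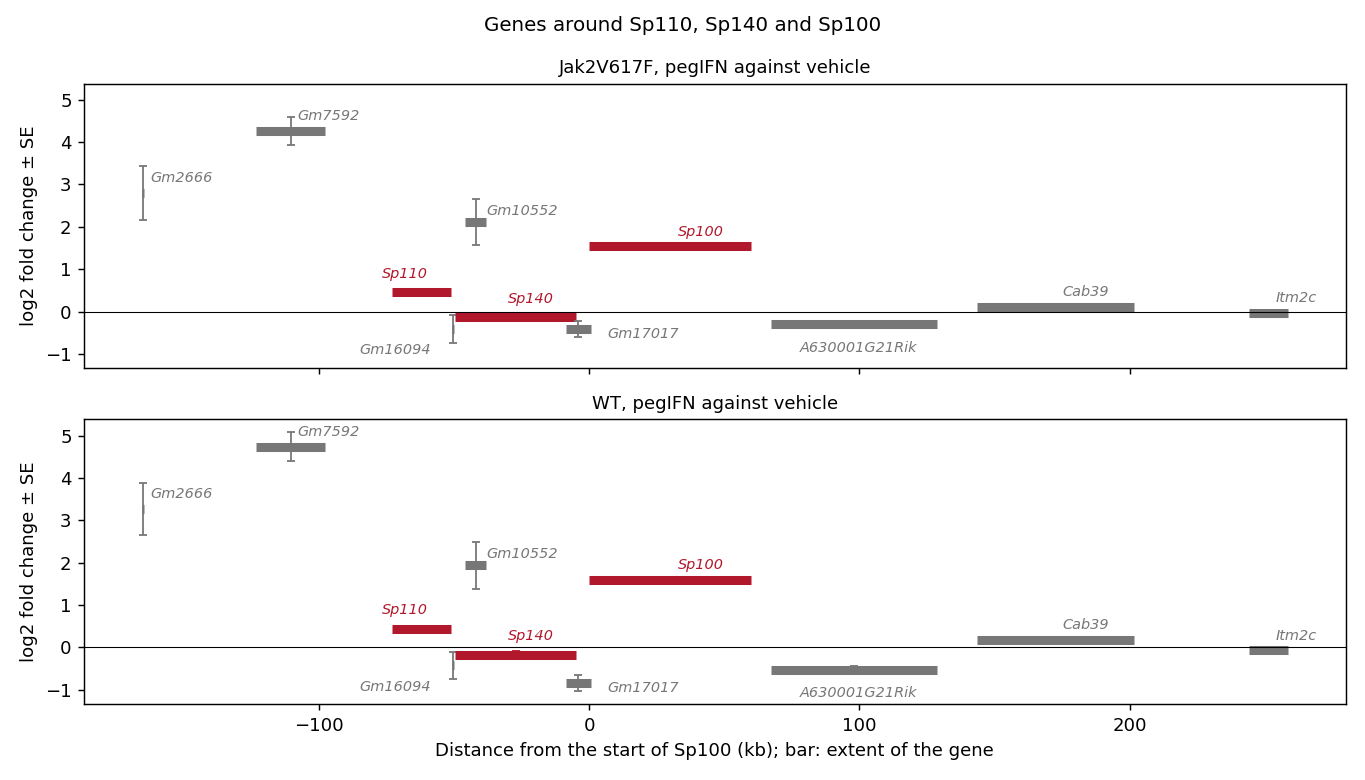
Log2 fold change of pegIFN over vehicle (y axis, whisker ± SE) of the 11 tested genes around Sp110, Sp140 and Sp100 (red), placed by distance from the start of Sp100 in kb (x axis; bars span each gene), in Jak2V617F cells above and WT cells below. Sp140 lies close to 0 between the raised Sp110 and Sp100, and Gm7592 is the highest, at 4.27 and 4.74.

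The genes through which interferon acts were read beside the family. Of 12 signalling factors, 5 rose and 4 fell in Jak2V617F cells and 6 rose and 4 fell in WT cells. Over all tested genes, 21.7% rose and 22.3% fell in Jak2V617F cells and 28.2% rose and 28.7% fell in WT cells. Irf7, the transcription factor that amplifies interferon responses, rose by 5.13 ± 0.16 in Jak2V617F and 5.33 ± 0.17 in WT cells on the log2 scale. Usp18, the feedback inhibitor at the receptor, rose by 4.54 ± 0.12 in Jak2V617F and 4.49 ± 0.12 in WT cells, and the transcription factor Stat2 rose by 1.80 ± 0.12 in Jak2V617F and 1.77 ± 0.12 in WT cells. The median log2 change of the 12 was -0.04 in Jak2V617F and 0.16 in WT cells, against -0.01 over all tested genes in either. Between genotypes, 1 of 12 was lower in Jak2V617F cells under pegIFN, the receptor kinase Jak1 (-0.16 ± 0.05, edgeR adjusted p = 0.039). Under vehicle 3 of 12 were lower: Jak1 (-0.23 ± 0.05, edgeR adjusted p = 0.0041), Ifnar1 (-0.22 ± 0.06, edgeR adjusted p = 0.02) and Irf2 (edgeR adjusted p = 0.046). Of all tested genes, 4.43% were lower under pegIFN and 4.23% under vehicle.

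SUMO conjugation builds the bodies, and its 20 listed genes changed by small amounts. In Jak2V617F cells 5 rose and 5 fell, beside 21.7% and 22.3% of all tested genes. In WT cells 10 rose and 5 fell, beside 28.2% and 28.7%. Uba2, a subunit of the SUMO-activating enzyme, rose by 0.28 ± 0.07 in Jak2V617F and 0.39 ± 0.07 in WT cells, and the SUMO protease Senp3 rose by 0.21 ± 0.05 in Jak2V617F and 0.26 ± 0.05 in WT cells. Pias2, a SUMO ligase, fell by 0.43 ± 0.07 in Jak2V617F and 0.44 ± 0.07 in WT cells. The median was 0.08 in Jak2V617F and 0.12 in WT cells. Between genotypes, Sumo2 was higher in Jak2V617F cells under pegIFN (0.47, edgeR adjusted p = 0.028), the only one of 20 called there. Under vehicle 4 were higher and 1 was lower, led by Uba2 (0.30 ± 0.07, edgeR adjusted p = 0.0073). Of all tested genes, 4.16% were higher under pegIFN, and 8.48% were higher and 4.23% lower under vehicle.

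Among 12 genes of H3.3 deposition and Daxx partners, 2 rose and 3 fell in Jak2V617F cells, beside 21.7% and 22.3% of all tested genes. In WT cells 4 rose and 3 fell, beside 28.2% and 28.7%. Atrx, the chromatin remodeller that works with Daxx, moved opposite to it: Atrx averaged 293 ± 24.9 CPM in Jak2V617F pegIFN and 313 ± 14.5 CPM in WT pegIFN libraries, against 386.5 ± 36.9 CPM in Jak2V617F vehicle and 423 ± 25.01 CPM in WT vehicle libraries. Its log2 change was -0.40 ± 0.06 in Jak2V617F (edgeR adjusted p = 2.5e-05) and -0.43 ± 0.06 in WT cells (edgeR adjusted p = 3.3e-06). Hira, which deposits H3.3 by another route, was at 0.12 ± 0.06 in Jak2V617F cells (edgeR adjusted p = 0.1) and rose by 0.34 ± 0.06 in WT cells (edgeR adjusted p = 2.1e-05). The H3.3 gene H3f3b fell by 0.19 ± 0.08 in Jak2V617F and by 0.37 ± 0.08 in WT cells, and the H3.3 gene H3f3a was higher in Jak2V617F than in WT cells under pegIFN (0.32, edgeR adjusted p = 0.028).

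Of the genes of 20 proteins known to visit the bodies, 7 rose and 2 fell in Jak2V617F cells, beside 21.7% and 22.3% of all tested genes. In WT cells 10 rose and 5 fell, beside 28.2% and 28.7%. Isg20, an exonuclease that is itself interferon-induced, averaged 134 ± 12.7 CPM in Jak2V617F pegIFN and 145 ± 12.5 CPM in WT pegIFN libraries, against 23.2 ± 3.00 CPM in Jak2V617F vehicle and 24.9 ± 1.84 CPM in WT vehicle libraries. Its log2 change was 2.53 ± 0.08 in Jak2V617F and 2.54 ± 0.08 in WT cells. Trp53, which encodes p53, rose by 0.32 ± 0.06 in Jak2V617F and 0.55 ± 0.06 in WT cells, and the ubiquitin ligase Trim27 rose by 0.34 ± 0.05 in Jak2V617F and 0.45 ± 0.05 in WT cells. Under pegIFN 3 were lower in Jak2V617F than in WT cells: the helicase Wrn (-0.33 ± 0.06, edgeR adjusted p = 0.0015), the acetyltransferase Ep300 (-0.29 ± 0.07, edgeR adjusted p = 0.018) and Trp53 (-0.22 ± 0.06, edgeR adjusted p = 0.021). Under vehicle 2 were higher in Jak2V617F cells and 2 lower, with Blm at 0.35 (edgeR adjusted p = 0.019), Ep300 at -0.24 (edgeR adjusted p = 0.029) and Zbtb16 at -0.49 (edgeR adjusted p = 0.036). Of all tested genes, 4.43% were lower under pegIFN, and 8.48% were higher and 4.23% lower under vehicle.

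Genes with the pattern most like each member were sought among 12258 tested genes by Pearson's r of log2 CPM over the 24 libraries. These values share the treatment contrast and the libraries, and are a description only. Nearest to Daxx were Rnf213 (r = 0.994), BC006779 and Isg20 (both 0.992), and nearest to Sp100 were Trim30a (0.994), Ddx60 (0.993) and Trim34a (0.992). Znfx1 came first for both Pml (0.966) and Sp110 (0.976), followed by BC006779 (0.966) and Slc25a22 (0.962) for Pml and by H2-T24 and Ddx60 (both 0.973) for Sp110. Sp140 had other neighbours, Vwa5a (0.845), Rab11fip2 (0.839) and 1500002C15Rik (0.824). With group means removed, r over the same libraries was 0.541 for Znfx1 with Pml, 0.703 for Rnf213 with Daxx, 0.646 for Trim30a with Sp100, 0.639 for Znfx1 with Sp110 and 0.806 for Vwa5a with Sp140.

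All 8 LT-HSC markers (Kit, Ly6a, Slamf1, Procr, Hlf, Mecom, Fgd5 and Ctnnal1) were detected in every library. Detection alone does not show how pure the sorted cells were. The level summed over these 8 markers moved with treatment. It was 666 to 1236 CPM in Jak2V617F pegIFN and 779 to 1131 CPM in WT pegIFN libraries. Under vehicle it was 993 to 1472 CPM in Jak2V617F and 1308 to 2087 CPM in WT libraries. With pegIFN, 6 of 8 fell and 1, Ly6a, rose in each genotype. Ly6a encodes Sca1 and Kit encodes cKit, both antigens of the sort gate. The median of Ly6a was 258 CPM under pegIFN and 53.2 under vehicle in Jak2V617F cells, and 235 and 57.6 in WT cells. That of Kit was 319 CPM under pegIFN and 605 under vehicle in Jak2V617F cells, and 489 and 923.5 in WT cells. Whether the gate took like cells in both treatments was not tested. Of all tested genes, 22.3% fell and 21.7% rose in Jak2V617F cells and 28.7% fell and 28.2% rose in WT cells. The summed level of 17 markers of mature cells, of which 14 were tested, was 760 to 1277 CPM in Jak2V617F pegIFN, 277.5 to 624 CPM in WT pegIFN, 545 to 1656 CPM in Jak2V617F vehicle and 330.1 to 760.0 CPM in WT vehicle libraries. Mpo and Pf4 were the most abundant of them by median in every group. The T-cell markers Cd3e and Cd3g were at 0 in 3 or more libraries of every group. Of the 14, 4 fell with pegIFN in Jak2V617F cells, and 5 fell and 1 rose in WT cells. Higher in Jak2V617F than in WT cells were 2 under pegIFN and 1 under vehicle, beside 4.16% and 8.48% of all tested genes. The part of these markers in the results for the 5 genes was not tested, and in bulk samples fewer cells of a type and less RNA per cell cannot be told apart. Library totals were 24.6 to 39.7 M counts, and behind the values of the 5 genes stood 4203 to 15941 counts per library for Pml, 971 to 5230 for Daxx, 2300 to 12461 for Sp100, 3548 to 8720 for Sp110 and 974 to 1818 for Sp140.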

How the data were processed

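The deposited table held expected counts per gene, which the authors made from single-end 75 bp reads of polyadenylated RNA; the submitters' processing notes name cutadapt 1.11, STAR 2.5.2a, RSEM 1.2.30 and GRCm38. The annotation release is not given in the sources used here. RSEM divides shared reads, so 16.8% of values are not whole, and counts were rounded. Genes were kept by filterByExpr (minimum count 10; 22336 of 38215 removed, 15879 tested), and edgeR 4.0.16 in R 4.3.3 was run with TMM factors, 4 group means and robust quasi-likelihood F tests, two-sided, with Benjamini-Hochberg adjustment over all tested genes and a threshold of 0.05; intervals are 95%. The common biological coefficient of variation was 18.6%. CPM use TMM-scaled library sizes, log2 CPM a prior count of 2.

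Mouse numbers came from the library names; labels put both donors in each recipient, so same-numbered libraries are from the same animal. After group means were removed, the 12 pairs correlated at 0.119 to 0.416, and 11 of 12 WT libraries were closest to their own partner. Library names also end in an S number, and these numbers recur between libraries. The labels do not say what they mean, so no term for them was fitted. Their part in these correlations was not tested. The main fit treats libraries as independent, so its p-values mix spread between mice with spread within mice. For the genotype comparisons, p-values with the mouse as a block measure spread within mice. The number of donors is not stated.

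The members and gene lists were chosen with earlier results of these data known. Named were the 5 genes, up to 3 members of each other list with the smallest p, the 3 genes nearest in pattern to each member, tested genes within 250 kb of the chromosome 1 locus, and Xist and Y-linked genes; marker genes beyond these, Irf9, Ifnar2 and Tyk2 were named as background. One signalling gene is not reported here and was left out of its list. The main fit, without a mouse block, was run on simulated counts of independent libraries, so that check does not cover the pairing within mice. Alternatives were DESeq2 1.42.0, upper-quartile and RLE factors, other filters, only the groups compared, blocks, limma-voom (limma 3.58.1) with a mouse correlation of 0.423, and libraries left out.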

Additional observations from a re-analysis of the deposited data

Results flagged for a closer look

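Sp140 in replicate 3 of the Jak2V617F pegIFN group had 50.85 CPM, while the other 5 libraries of the group had 33.2 to 39.6 CPM, so this library stood far from the others. Its gap to the nearest library was 0.636 of the range of the group, above Dixon's critical value for 6 libraries. The 5 genes in 4 groups made 20 such groups, and chance flags about 1 in 20. The WT library of the same mouse had the highest Sp140 level of its own group, 46.2 CPM. Without the Jak2V617F library, the log2 change of Sp140 with pegIFN was -0.22 in Jak2V617F cells (edgeR adjusted p = 0.028), against -0.13 with it.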

How the results depend on the processing

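The increases of Pml, Daxx, Sp100 and Sp110 with pegIFN passed in both genotypes under every alternative run, including the 12 fits of each comparison that leave out a library, and no called value changed sign. Precision is limited by 6 libraries a group and by their spread. For Sp140 the SD was 7.95% to 16.8% of the mean CPM within groups. The replicate numbers of the titles did not pair treated and vehicle libraries (r from -0.239 to 0.0574); with that number as a block, edgeR called 5798 genes in Jak2V617F and 7998 in WT cells, with no call changed among the 5 genes.

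Sp140 in WT cells was -0.25 with upper-quartile factors (edgeR adjusted p = 0.026), a scaling that moved the median of all genes by -0.082. In Jak2V617F cells Sp140 ranged from -0.22 to -0.08 with 1 library left out. Between genotypes under vehicle, Pml was -0.23 with no filter (edgeR adjusted p = 0.084), -0.24 with only the groups compared (0.0585) and -0.22 without both libraries with unusual Xist and Y-linked levels (0.0716), and -0.28 to -0.20 with 1 library left out. Sp100 was -0.22 without both libraries (0.0596) and -0.29 to -0.21 with 1 left out, and Sp110 was -0.10 with the mouse as a block (0.0353) or as a random block in limma-voom (0.0266). Daxx under pegIFN was -0.25 with no filter (edgeR adjusted p = 0.0553), -0.25 with only the groups compared (0.0831), -0.22 without both libraries (0.107) and -0.28 to -0.17 with 1 left out. The cause of these changes was not tested, and the fits with libraries left out had no mouse block.

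Genes called between genotypes under pegIFN numbered 1364, against 3910 with the mouse block, 3859 with limma-voom, 653 without both libraries and 593 to 2051 with 1 left out. Under vehicle they numbered 2018, against 4944 with the mouse block, 5257 with limma-voom, 1038 with only the groups compared, 999 without both libraries and 929 to 2650 with 1 left out. For the interaction they numbered 0, against 528 with the mouse block, 281 with limma-voom, 38 with DESeq2 and 0 to 36 with 1 library left out. The mouse block changed no other call of the 5 genes.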
